A study of Mus musculus with 14 samples.

Results

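The open chromatin of LT-HSCs, the long-term blood stem cells of mice, was described at a young age from 4 bulk ATAC-seq libraries, out of 14 in the series. These were all the libraries labelled young, and what is described are the 57289 consensus peaks of 700 bp counted in each of them, ranked by mean accessibility. The cells came from bone marrow of C57BL/6 mice aged 10 to 16 weeks and were sorted as Lin- Sca1+ cKit+ CD34- Flt3-. They were untreated, but like every sample of the series they were held for 16 h after the sort, in HBSS with 10% serum at 37 °C and 3% oxygen, so the state described is that of cells after this culture. No genotype other than the strain is given, and whether a library came from 1 mouse or from pooled mice is not given. The other 10 libraries, from mice over 80 weeks old with or without the RhoA inhibitor Rhosin at 100 µM, were not used here, and no groups are compared.

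ATAC-seq marks where the transposase Tn5 can insert into DNA that is not wrapped in nucleosomes. Such open sites are found at the promoters of active and poised genes, where they tend to be alike between cell types, and at distal enhancers, which differ far more between cell types. LT-HSCs are rare, divide seldom and can give rise to all blood lineages, and their identity rests on transcription factors such as Runx1, Meis1, Mecom, Erg and Gata2.

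Accessibility is given in CPM, the counts of a peak per 1000000 counts in all peaks of that library, and the error is the SD over the 4 libraries unless another is named. A gene end is the more open of the 1 kb windows either side of a protein-coding gene's annotated ends, with its peaks summed, and a gene with no consensus peak at either end has the value 0. A gene's percentile is its place among all 21887 protein-coding genes. At B-lineage genes the summed level was highest in young 1 and lowest in young 4, as set out below. The summed levels of the B-lineage list and of the T and NK list, and the B-lineage median percentile, are also given without young 1.

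The promoter sequences that stand for the most open gene ends of these cells are those of Sp1, Khsrp, Hjurp and Lyl1. Each is the 250 bases before the start site in RefSeq (GRCm38.p6, the assembly called mm10), 5′ to 3′ on the strand of the gene. Capitals mark matches on either strand to any of 9 motifs that were searched. These were CCGGAA for ETS factors, GGGCGG for the GC box, CCAAT for the box bound by NF-Y, TGACGTCA for CREB and ATF factors (CRE), ATGGCGG for YY1, TATAAA for the TATA box, AGATAA for GATA factors, TGTGGTT for RUNX factors and GAGGAAGT for PU.1. None of these runs of letters contains another, though matches can overlap. A match is a run of letters and not a shown binding site.
Sp1, chr15:102406066-102406315, plus strand: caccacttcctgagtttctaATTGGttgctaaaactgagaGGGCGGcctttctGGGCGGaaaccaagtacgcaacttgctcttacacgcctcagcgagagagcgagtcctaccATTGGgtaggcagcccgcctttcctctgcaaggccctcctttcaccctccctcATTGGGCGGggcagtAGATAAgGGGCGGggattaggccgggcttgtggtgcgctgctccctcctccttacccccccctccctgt
Khsrp, chr17:57031508-57031757, minus strand: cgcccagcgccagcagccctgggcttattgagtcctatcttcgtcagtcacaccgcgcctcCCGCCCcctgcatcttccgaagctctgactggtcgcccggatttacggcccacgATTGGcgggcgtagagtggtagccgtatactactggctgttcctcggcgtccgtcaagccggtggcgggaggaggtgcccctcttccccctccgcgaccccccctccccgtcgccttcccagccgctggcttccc
Hjurp, chr1:88277580-88277829, minus strand: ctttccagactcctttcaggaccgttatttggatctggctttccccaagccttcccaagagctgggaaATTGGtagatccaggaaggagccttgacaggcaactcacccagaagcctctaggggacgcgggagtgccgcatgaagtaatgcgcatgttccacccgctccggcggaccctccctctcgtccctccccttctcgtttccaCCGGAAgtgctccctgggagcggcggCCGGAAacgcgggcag
Lyl1, chr8:84701207-84701456, plus strand: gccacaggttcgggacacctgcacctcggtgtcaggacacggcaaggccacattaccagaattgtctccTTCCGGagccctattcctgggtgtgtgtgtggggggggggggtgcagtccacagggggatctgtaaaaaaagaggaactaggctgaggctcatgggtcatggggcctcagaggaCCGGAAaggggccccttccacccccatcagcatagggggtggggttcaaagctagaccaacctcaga
Sp1, itself the factor that binds GC boxes, held 4 GC boxes, 3 CCAAT boxes and 1 GATA match, with a CCAAT box and a GC box overlapping in one place, and its peak had 299.6, 358, 444 and 264 CPM in young 1 to 4. The window of Khsrp, an RNA-binding splicing and decay factor, held 1 GC box and 1 CCAAT box and had 279.8, 322, 466 and 264 CPM. Hjurp, the chaperone that loads the centromeric histone CENP-A, held 1 CCAAT box and 2 ETS matches and had 246, 287, 273 and 286 CPM. Lyl1, a bHLH factor of blood stem cells, held 2 ETS matches and had 85.6, 159, 135 and 162 CPM over its 300-base promoter. Its ratio of observed to expected CpG was 0.261, against 0.677 for Sp1, 0.946 for Khsrp and 0.827 for Hjurp.

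The stem cell markers Kit, Meis1 and Procr had start sites that were open but far below these, and their promoters are shown because the label of the cells rests on such genes.
Kit, chr5:75574737-75574986, plus strand: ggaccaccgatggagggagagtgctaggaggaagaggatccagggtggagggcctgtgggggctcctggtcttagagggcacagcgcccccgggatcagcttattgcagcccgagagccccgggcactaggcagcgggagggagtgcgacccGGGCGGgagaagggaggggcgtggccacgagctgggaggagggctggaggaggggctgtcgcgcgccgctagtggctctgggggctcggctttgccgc
Meis1, chr11:19018970-19019219, minus strand: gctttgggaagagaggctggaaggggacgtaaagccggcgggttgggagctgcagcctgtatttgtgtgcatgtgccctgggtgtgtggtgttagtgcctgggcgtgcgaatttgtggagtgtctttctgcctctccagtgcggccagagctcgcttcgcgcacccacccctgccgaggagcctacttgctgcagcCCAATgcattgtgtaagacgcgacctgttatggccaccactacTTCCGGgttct
Procr, chr2:155750967-155751216, plus strand: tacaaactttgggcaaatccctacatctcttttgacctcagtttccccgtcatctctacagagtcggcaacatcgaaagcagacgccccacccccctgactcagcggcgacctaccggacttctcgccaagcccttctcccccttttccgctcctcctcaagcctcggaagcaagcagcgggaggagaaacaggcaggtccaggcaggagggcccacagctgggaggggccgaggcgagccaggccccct
Kit, the receptor of stem cell factor and one of the markers of the sort, held 1 GC box and had 36.0, 28.5, 44.4 and 39.0 CPM over this window. Meis1, a homeodomain partner of Hox proteins, held 1 CCAAT box and 1 ETS match and had 22.1, 29.8, 13.1 and 34.0 CPM. Procr, the endothelial protein C receptor of stem cells, held none of the 9 motifs in these 250 bases and had 12.6, 15.2, 9.14 and 20.4 CPM. Procr was lowest of the 3 in every library, and Kit was above Meis1 in young 1, 3 and 4 but not in young 2.

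For contrast, the promoters of 2 lineage genes are shown, Igll1 of B-cell precursors and Mpo of granulocytes, which are poor in CpG.
Igll1, chr16:16863986-16864235, minus strand: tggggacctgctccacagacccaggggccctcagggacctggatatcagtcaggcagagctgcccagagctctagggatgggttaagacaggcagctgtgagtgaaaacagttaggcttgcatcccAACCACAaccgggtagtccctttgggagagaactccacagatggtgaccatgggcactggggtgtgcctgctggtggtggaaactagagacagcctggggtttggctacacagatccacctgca
Mpo, chr11:87793534-87793783, plus strand: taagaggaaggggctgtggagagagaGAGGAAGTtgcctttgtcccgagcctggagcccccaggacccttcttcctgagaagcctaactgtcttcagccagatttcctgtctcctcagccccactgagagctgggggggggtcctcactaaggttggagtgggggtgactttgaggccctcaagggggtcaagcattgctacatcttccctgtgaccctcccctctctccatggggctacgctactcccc
Igll1, a surrogate light chain component, held 1 RUNX match and had 46.0, 13.2, 15.7 and 2.27 CPM, so that its level in young 1 was well above that in the others. Mpo, myeloperoxidase, held 1 PU.1 match and had 8.11, 7.94, 1.31 and 7.26 CPM. Their CpG ratios were 0.0833 and 0.0871.

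Most open promoters were rich in CpG, and the share with given motifs moved with openness. Of the 21887 protein-coding genes, 17492 (79.9%) had a start site and 300-base promoter (250 before to 50 after the start) in the table used, and 9972 of these had a consensus peak over it. The median CpG ratio was 0.211 in the 7520 promoters with no peak, 0.591 in the least open 20% of those with a peak and 0.734, 0.808, 0.839 and 0.8502 in the next 20% bins. Across promoters with a peak, Spearman's rho between CpG ratio and CPM was 0.355, and 0.301 to 0.381 in single libraries, a description over promoters of 1 set of libraries that share base composition and are not replicates. GC boxes were in 19.1% of promoters with no peak, 54.6% of the least open 20% of those with a peak and 80.1% of the most open 20%, against 47.2% of all promoters. ETS matches are the core bound by factors such as Fli1 and Erg as well as by widely expressed ones. They were in 5.93% with no peak and 14.2% of the least open bin. The upper 2 bins had 36.5 and 35.6%, against 19.3% of all. YY1 matches were in 1.37% with no peak, 3.41% of the least open bin and 11.2% of the most open, against 5.49% of all, and CRE matches in 0.864, 1.81 and 3.96%, against 2.35% of all.

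The CCAAT box, bound by NF-Y, did not follow the same course. It was in 38.7% of promoters with no peak, in 30.7% of the least open bin, and in 30.9, 34.6, 43.5 and 55.5% of the next ones, against 38.9% of all. TATA boxes ran the other way, with 22.4% of promoters with no peak and 4.71% of the most open bin, against 13.1% of all. Short motifs of the lineage factors were also less common in open promoters. GATA matches were in 15.2% of promoters with no peak and 3.51% of the most open bin (9.73% of all), and RUNX matches in 6.42 and 2.81% (4.80% of all). PU.1 matches showed no such course, at 3.15% with no peak, 4.06% in the least open and 3.36% in the most open bin, and 3.22% of all. Motifs rich in A and T are rarer in GC-rich sequence, and the part that base composition takes in these shares was not tested.

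**Figure D1:**
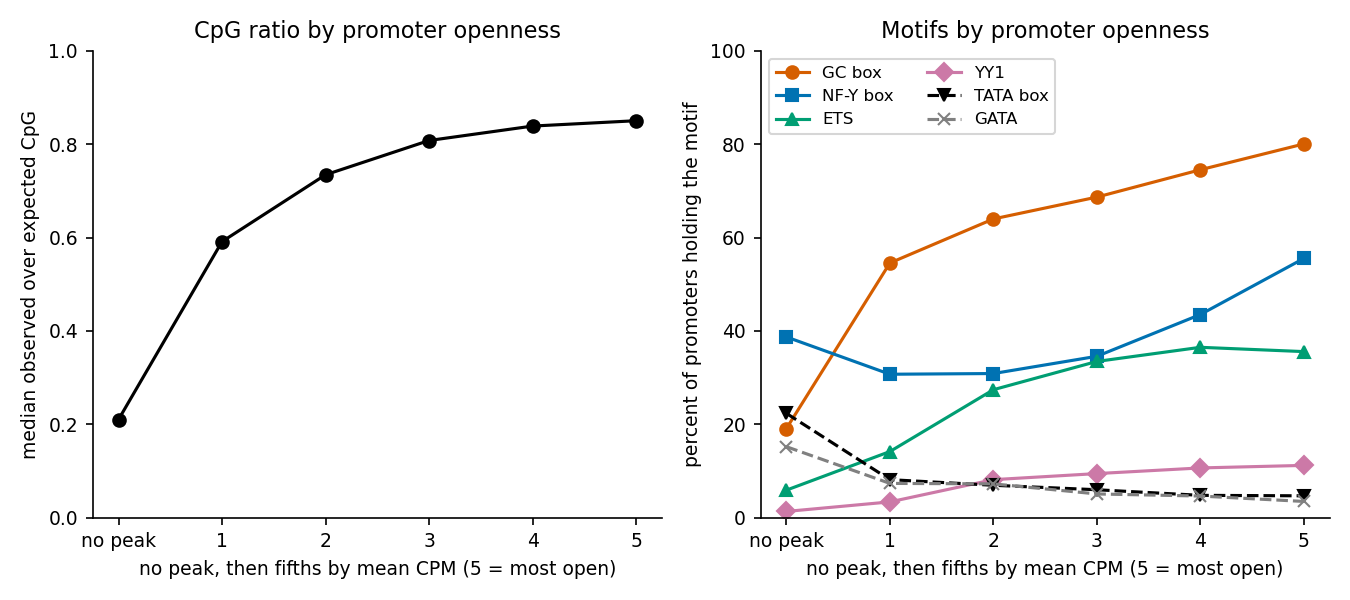
Median ratio of observed to expected CpG (left) and percent of promoters holding 6 of the motifs on either strand (right), for promoters with no consensus peak and for 5 equal bins of the promoters with a peak, by mean CPM over young 1 to 4. CpG ratio and GC boxes are highest in the most open bin, TATA and GATA matches are highest with no peak, and the NF-Y box (CCAAT) is lowest in the least open bin.

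Library depth ran from 765533 to 2219775 counts in peaks (young 3 and young 1), with a median of 7 to 20 counts per peak. Young 3 had 968 peaks at 0, and young 1, 2 and 4 had 8, 54 and 10. No peak was at 0 in all of them. The value of 3 counts, below which a level cannot be told from 0, was 1.35 CPM in young 1, 1.99 in young 2, 3.92 in young 3 and 1.36 in young 4. Young 1 was sequenced in batch 1, young 2 and 3 in batch 2 and young 4 in batch 3. Since batches 1 and 3 hold 1 young library each, batch and library cannot be told apart there. No pair agreed within sampling noise (chi-square per degree of freedom of 2.43 to 5.42), so each was counted as its own sample.

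Gene ends took a far larger share of the counts than of the peaks. The 13788 peaks at gene ends were 24.1% of all peaks and held 48.7% ± 1.94 of the counts (47.0, 47.0, 49.9 and 50.8% in young 1 to 4). Peaks inside gene spans but away from the ends were 40.3% of peaks and held 28.1% ± 1.03 of the counts, and intergenic peaks were 35.6% and held 23.2% ± 0.943. The median gene end peak had 23.3 CPM, against 7.48 for gene spans and 7.26 for intergenic peaks. The gene end share was the larger one in each of the 4 libraries, and the range between libraries was small beside the gap to the other classes.

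Openness was concentrated in few peaks, and more so in some libraries than in others. The median peak had 8.53 CPM and the most open one 3905 CPM, 458 times as much. The most open 1% of peaks held 8.502, 10.0, 12.7 and 9.69% of the counts in young 1 to 4, and the most open 10% held 39.7, 43.6, 47.2 and 45.2%. Young 3, the shallowest library, was the most concentrated and young 1 the least. The 1000 most open peaks were gene ends in 829 cases, gene spans in 91 and intergenic in 80. The 1000 least open peaks were gene ends in 41 cases, gene spans in 463 and intergenic in 496. Peaks just inside and just outside the 1000 most open had 99.59 and 99.58 CPM, so the limit marks no step in the data. The least open 1000 peaks had 0.896 to 2.89 CPM and a median of 18 counts summed over the 4 libraries, and 285 of them had 0 in at least 1 library, so little can be read from their order. In the least open 10% of peaks the median CV over the libraries was 48.0%, against 44.5% from counting error.

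**Figure D2:**
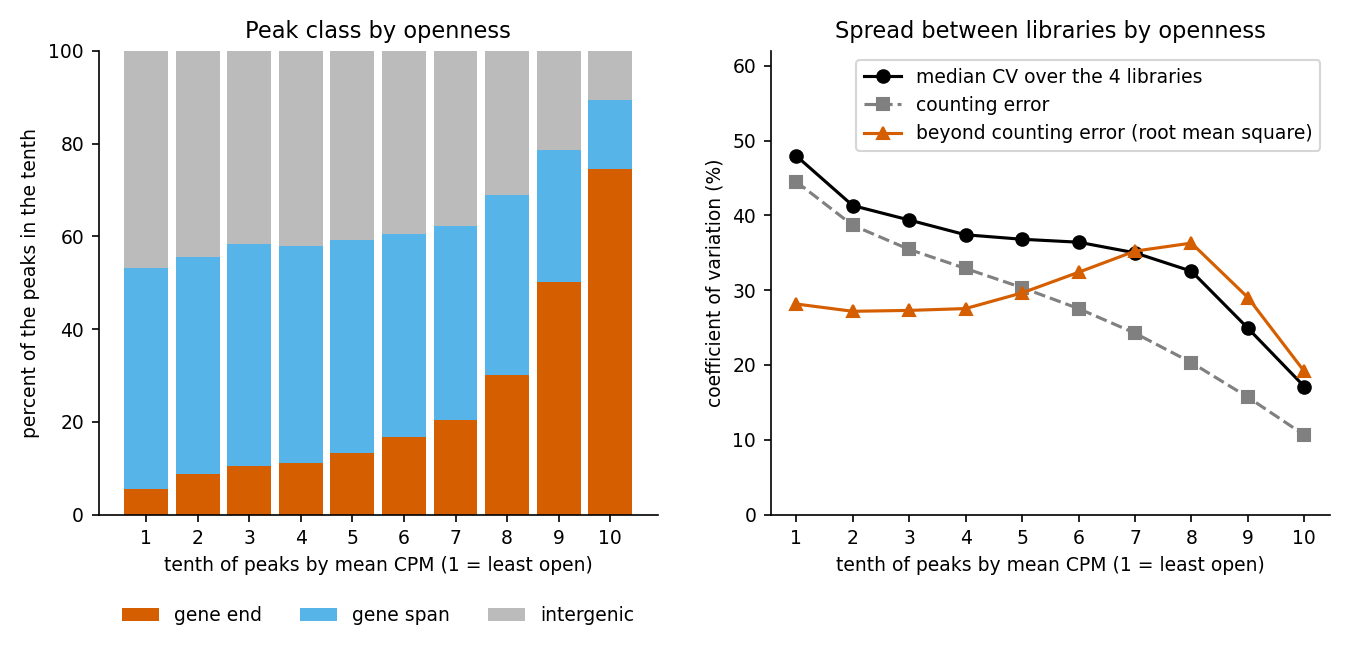
Left: percent of peaks in each class by 10% bin of mean CPM over the 4 young libraries, where gene ends make up 5.52% of the least open bin and 74.5% of the most open. Right: coefficient of variation (CV, in percent) over the 4 libraries by the same bins, as the median over peaks, the part that counting error gives and the root mean square beyond it, which peaks at 36.3% in bin 8 and is lowest in the most open bin at 19.1%.

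The 3 most open peaks lay away from gene ends and had the highest counts in each library. The first was intergenic on chromosome 12 (chr12:97061261-97061960), with no protein-coding gene within 1140 kb, and had 2117, 4010, 6227 and 3265 CPM in young 1 to 4. The next ones lay within Myo3a, an unconventional myosin of the inner ear, at chr2:22589075-22589774 with 3335 ± 1875 CPM and chr2:22587581-22588280 with 2472 ± 1398 CPM. These 3 peaks held 0.506, 0.994, 1.66 and 0.728% of all counts, so their share in young 3 was more than 3 times that in young 1. The fourth peak in rank had 623 CPM. No list of excluded regions was applied here to any peak. Whether repeated sequence adds reads to these 3 peaks, or to the peaks, gene ends and loci below, was not tested.

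Below these, the most open distal peaks were spread over the genome. A peak 7.04 kb from Mid1, a ubiquitin ligase gene at the boundary of the pseudoautosomal region of the X chromosome, had 623 ± 259 CPM, and one within Peak1, a pseudokinase gene of the cytoskeleton, 509.8 ± 149.5 CPM. Next came intergenic peaks far from any gene, 640 kb from Nxph1 (447 ± 216 CPM) and 1766 kb from G6pd2 (374 ± 177 CPM). Peaks within Gphn, the scaffold protein gephyrin, and Jarid2, an accessory protein of Polycomb repressive complex 2, had 375 ± 78.6 and 372 ± 93.3 CPM. Those near Rimbp3 and Myl12b, a regulatory light chain of non-muscle myosin, had 339 ± 57.4 and 339 ± 68.6 CPM, and those near Pak3 and within Arhgap21 had 313 ± 155 and 282 ± 108 CPM. The distal peaks at Gphn, Rimbp3 and Myl12b varied by no more than 21.0% (CV) between libraries, and that at Pak3 by 49.6%.

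The most open gene ends were those of genes with varied roles, and several were shared by neighbouring genes. Lars2, the mitochondrial leucyl-tRNA synthetase, led with 660, 490, 713 and 542 CPM in young 1 to 4, and its open end was not the start but the other end of the gene. Scaf1, a splicing-related protein, had 403 ± 51.1 CPM over 2 peaks, shared with another gene, followed by Sp1 with 341 ± 78.6 CPM and the shared peak of Khsrp and Slc25a41 with 333 ± 92.3 CPM. Mid1 had 177, 261, 321 and 466 CPM at the end that is not its start. Cic, the repressor capicua, had 286 ± 77.3 CPM, the shared end of Hdgfl2 and Ubxn6 283 ± 54.1, Mtmr4, a lipid phosphatase, 279.7 ± 72.5, and Zbtb20, a zinc finger repressor, 277 ± 102 CPM. The shared end of Izumo4 and Mob3a had 273 ± 48.6 CPM, Hjurp 273 ± 18.8 and Gsk3b, glycogen synthase kinase 3 beta, 267 ± 101 CPM. The SDs of most of these overlap, so their order within the first 12 is not firm, while all lie far above the median gene end with a peak, at 31.4 CPM. Repeated sequence was not excluded for these ends either, and its part in their levels was not tested.

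Of all protein-coding genes, 13263 had a consensus peak at an end and 8624 (39.4%) had none. The strand was known for 10621 of the genes with a peak, and the more open end was the start in 9745 of them (91.8%). This share was 94.8% in the most open 25% of all genes (5472 genes, at or above 39.7 CPM) and 83.4% in the least open 25% of gene ends (up to 14.2 CPM). The least open gene ends with a count in every library were those of Ftdc1 (1.45 CPM), Lpar4, a lysophosphatidic acid receptor (2.11), Fibin (2.27), Oprd1, the delta opioid receptor (2.58), Asic5, an ion channel (2.62), Defb14 with Spag11a, a shared defensin end (2.63), Krt81, a hair keratin (2.68), and Cybrd1, a duodenal iron reductase (2.68). Among the 8 lowest of all, Calb1, a neuronal calcium-binding protein (1.97 CPM), Sec16b (2.13), Hdac4, a class IIa histone deacetylase (2.22), and Onecut2 (2.48) were at 0 in 1 library each. These levels are close to those of 3 counts, and nothing is drawn from their order.

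Gene families with broad functions were open and tissue-restricted families were mostly without a peak. Of 84 cytosolic ribosomal protein genes, 58 were in the most open 25%, a group that by its definition holds 25% of all genes, and 6 had no peak, as 39.4% of all genes had. The numbers in the most open 25% were 28 of 78 for mitochondrial ribosomal proteins, 17 of 40 for subunits of respiratory complex I, 22 of 40 for proteasome subunits and 33 of 56 for translation initiation factors. Zinc finger genes named Zfp had 106 of 397 there and solute carriers 86 of 375, both near the background. None of the 1110 olfactory receptors was in the most open 25% and 1099 had no peak at all, and 347 of 353 vomeronasal receptors (2 were in the most open 25%), 69 of 71 defensins, 71 of 92 cadherins and protocadherins and 40 of 53 keratins had none. Among potassium channels 47 of 94 had no peak, among interleukins and their receptors 42 of 83, and among chemokines and their receptors 28 of 47. Hox genes, several of which are active in stem cells, had 20 of 39 with no peak and none in the most open 25%.

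The 4 markers used to check the label of the cells, Kit, Meis1, Mecom and Procr, each had a peak at an annotated end, the first 3 in the most open 25% of genes and Procr near the middle. Kit had 65.3, 47.0, 73.2 and 56.7 CPM at its start in young 1 to 4 (60.5 ± 11.3), at percentile 85.8. Meis1 had 46.4, 54.3, 32.7 and 63.1 CPM (49.1 ± 12.9, percentile 80.6). Mecom, a zinc finger factor, had 27.9, 41.7, 32.7 and 61.3 CPM (40.9 ± 14.7, percentile 75.7). Its mean lay within its SD of the lower limit of the most open 25%, 39.7 CPM. The libraries overlapped between these 3 genes. Procr was lower in each library, at 12.6, 15.2, 9.14 and 20.4 CPM (14.4 ± 4.75, percentile 54.6). The Mecom level is that of its outer annotated start. The inner start in the promoter table had 6.76, 4.63, 1.31 and 8.17 CPM, lower in every library than the outer one. Other genes of the sort and of stem cells were lower still or did not follow the label. Ly6a, which encodes Sca1, had 10.5 ± 3.52 CPM (percentile 50.2), and Slamf1, the stem cell receptor CD150, had no peak at an annotated end. Flt3, a receptor that the sort selects against, had 29.7, 23.8, 24.8 and 19.97 CPM (24.6 ± 4.02, percentile 64.3), above Procr by its mean.

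The wider list of stem cell identity genes held both extremes of openness. Of its 33 members, 12 were in the most open 25% and 4 had no peak at an annotated end, and the median percentile was 57.0 (50 over all genes). Lyl1 led with 172, 269, 204 and 243 CPM over 2 peaks, of which 1 is shared with the end of the neighbouring gene Trmt1 and had 86.5, 110.5, 69.2 and 81.7 CPM. Ctnnal1, the gene behind the alpha-catulin reporter of stem cells, had 90.6 ± 11.95 CPM. Mllt3, Runx1, Ikzf2, Hlf, Msi2 and Tal1 lay between 40.7 and 51.3 CPM. Fgd5, a reporter gene of stem cells, had 16.1 ± 3.51 CPM. The lowest members with a peak were Tek, the angiopoietin receptor Tie2 (3.84 ± 0.811 CPM), and Ndn, necdin (5.12 ± 1.94 CPM). Gata2, Fli1, Slamf1 and Zfx had no peak at an annotated end, and an annotated end can miss a start site inside the gene. At a start site of the promoter table Gata2 had 30.6 CPM and Zfx 28.2 CPM.

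Lineage lists had median percentiles from 19.7 to 53.5, below the 57.0 of stem cell genes, but for 2 of them this order depends on the window. With 2 kb in place of 1 kb around gene ends, the B and common lymphoid list stood at 60.7 and the megakaryocyte list at 59.7, above stem cell genes at 58.0. The T and NK list stood at 37.2 with that window, against 19.7 with 1 kb, and the erythroid list at 19.2 around start sites of the promoter table alone, against 43.8 at gene ends. In the megakaryocyte and platelet list, 2 of 20 members were in the most open 25%, Nfe2, a factor of platelet formation (131 ± 28.9 CPM), and Itga2b, the integrin CD41 (50.2 ± 15.7 CPM). Vwf, von Willebrand factor, was low at its end (5.51 ± 1.09 CPM) but had 9 distal peaks of 90.6 CPM in all. In the erythroid list the 2 of 18 members there were Ermap (62.7 ± 19.3 CPM, at an end that is not its start and is shared) and Tfrc, the transferrin receptor (53.4 ± 5.10 CPM). Gata1, Epor, Alas2, Slc4a1 and both alpha globin genes had no peak at their ends. Klf1, the erythroid Krüppel factor, had 28.0 ± 6.65 CPM.

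The myeloid list had no member of 23 in the most open 25% and a median percentile of 45.7. Its most open members were the regulator Spi1, PU.1 (36.8 ± 6.02 CPM), Csf3r, the G-CSF receptor (33.7 ± 18.5), and the regulators Irf8 (28.2 ± 3.88) and Cebpa (26.9 ± 8.63). Genes of granulocyte proteins were low or lacked a peak: Elane had 6.68 ± 2.44 CPM and Mpo 6.15 ± 3.25 CPM, and Ctsg, Epx, S100a8 and S100a9 had no peak at an end. In the B and common lymphoid list, 1 of 19 members was in the most open 25%, Tcf3, the E protein factor (139 ± 8.58 CPM), and 9 had no peak, among them Pax5, Il7r and Rag2. Its median percentile of 45.7 was 42.9 without young 1, 56.2 around start sites alone and, as given above, 60.7 with the 2 kb window. For T and NK cells, 11 of 20 members had no peak, among them Cd3e, Cd3g, Cd8a and Ptcra. Cd3d (71.5 ± 23.2 CPM) was open only at the end that is not its start, and Tcf7 had 10.5 ± 1.52 CPM. Of the endothelial and stromal list no member of 15 was in the most open 25%, with Kdr highest at 27.2 ± 3.71 CPM and Cdh5, Lepr and Cxcl12 without a peak. Of 20 genes of tissues outside blood, 17 had no peak, and the other 3, Sox1, Apoa1 and Myod1, had 4.42 to 9.72 CPM.

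Lists of function had higher median percentiles than the lineage lists, with immediate early genes highest. Of 22 immediate early and AP-1 genes, 16 were in the most open 25%, with a median percentile of 89.5. Junb had 149, 176, 125 and 192 CPM, Jund 141 ± 23.9, Ier2 136 ± 16.4 and Jun 127 ± 14.1 CPM, while Egr3 (8.43 ± 1.81 CPM) was low. These genes respond to handling and culture in many cells, and no sample without the 16 h culture was used here, so the part of culture in their openness was not tested. Housekeeping genes had 15 of 18 members in the most open 25% (median percentile 81.3), led by Polr2a, the largest subunit of RNA polymerase II (156 ± 8.09 CPM), and Rpl13a (145 ± 19.7 CPM). Actb and Ywhaz lacked a peak at their annotated ends but had 6 and 11 distal peaks.

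Genes of the cell cycle were open although LT-HSCs divide rarely. All 17 genes of S phase to mitosis had a peak and 12 were in the most open 25% (median percentile 79.5). Ccna2, cyclin A2, at an end that another gene shares, had 100.2 ± 0.738 CPM, with no more spread than counting gives, and Pcna 95.5 ± 3.63 CPM. Plk1 was lowest at 17.5 ± 4.77 CPM. Of 15 genes of quiescence and G1, 8 were in the most open 25% (median percentile 82.6), led by Foxo3, a guardian of stem cell quiescence (168 ± 19.0 CPM), Trp53, p53 (125 ± 11.4 CPM), and Txnip (104 ± 16.6 CPM). Cdkn2a, which encodes p16 and p19Arf, was low at 5.47 ± 1.85 CPM. Cdk6, whose level sets how fast stem cells leave quiescence, had 12.97 ± 3.68 CPM at its start and 13 distal peaks of 173 CPM in all.

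Interferon and antigen presentation genes had 8 of 19 members in the most open 25% and none without a peak (median percentile 65.2). H2-K1 and H2-D1, class I molecules, had 77.3 ± 8.65 and 68.96 ± 8.63 CPM and Tap1, their peptide transporter, 70.4 ± 7.84, while the inducible genes Isg15 (8.33 ± 3.81 CPM) and Ifit1 (8.52 ± 0.702 CPM) were low. Paralogs of class I genes can share reads, and how multiply mapped reads were counted is not given. Of 18 chromatin regulators, 8 were in the most open 25% (median percentile 71.8), with Asxl1 (110.4 ± 14.7 CPM), Kmt2a (106 ± 23.8) and Eed (95.4 ± 6.52) first and Tet1 (7.68 ± 1.46 CPM) lowest of those with a peak. Dnmt1 and Dnmt3a had 62.1 and 33.6 CPM at start sites of the promoter table that are not at their annotated ends.

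**Figure D3:**
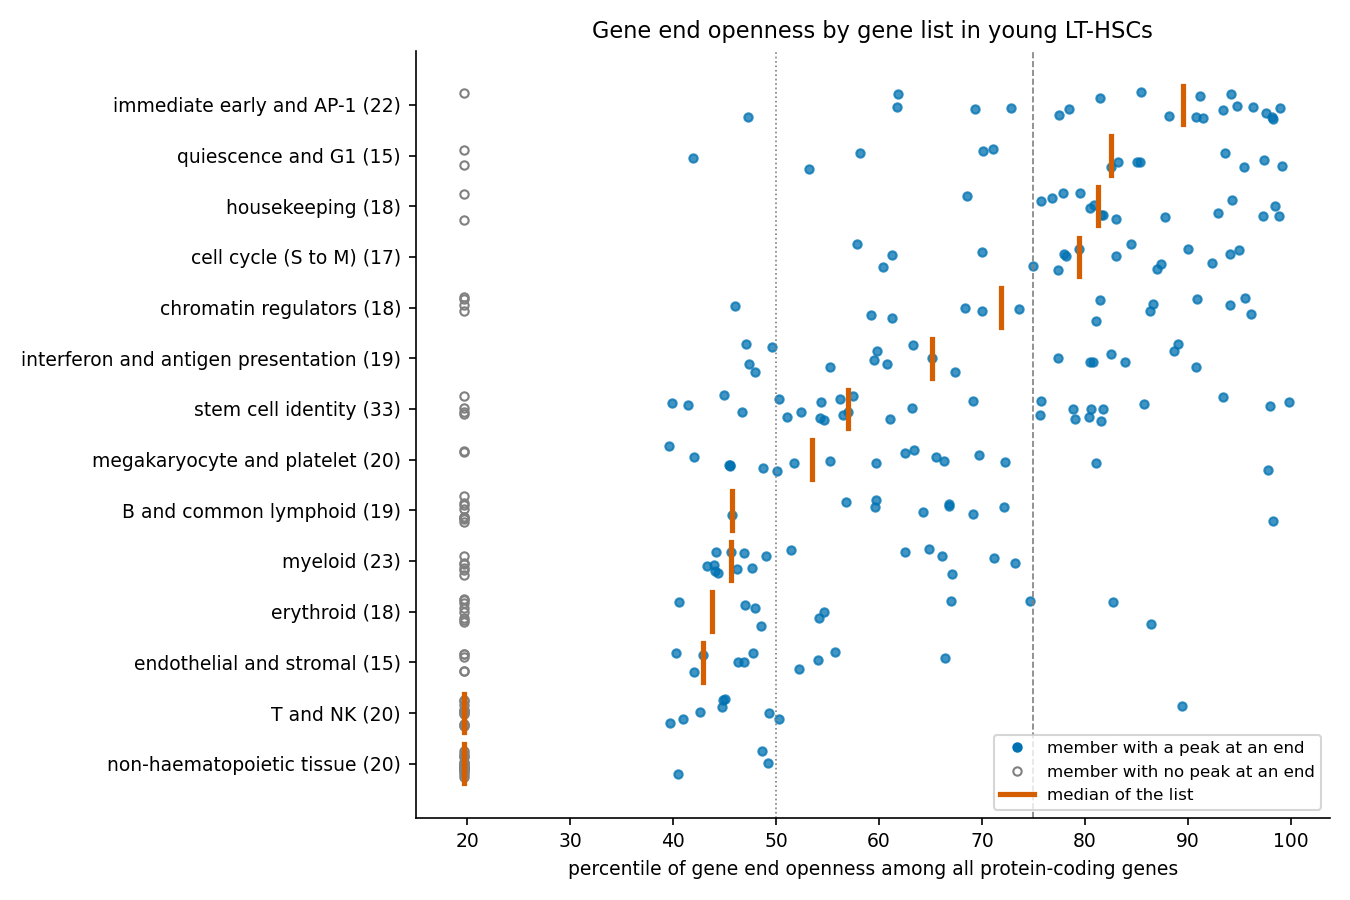
Percentile of each list member's gene end among all 21887 protein-coding genes by mean CPM over the 4 young libraries, with the number of members in brackets, the median of each list as a bar, and dashed and dotted lines at the most open 25% and the middle. Members without a peak share 1 rank at 19.7, where the T and NK and the non-haematopoietic medians lie, and immediate early genes stand highest with a median of 89.5.

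Stem cell genes had many distal peaks around them. A distal peak here is one away from gene ends whose nearest protein-coding gene, within 50 kb, is the gene named. A start site inside a gene can lie away from its annotated ends, and a peak there counts as distal, as at Dnmt1 (62.1 CPM). All genes had a median of 1 such peak, and 10.8% had at least 5, against 16 of the 33 stem cell genes (48.5%), whose median was 4. At least 5 were found for 6 of 15 quiescence and G1 genes, 7 of 22 immediate early genes, 4 of 15 endothelial and stromal genes, 5 of 19 B and common lymphoid genes, 4 of 18 chromatin regulators, 4 of 20 megakaryocyte genes, 4 of 23 myeloid genes, 3 of 18 housekeeping genes, 3 of 20 T and NK genes and 1 of 18 erythroid genes. Stem cell genes are long, with a median span of 54.4 kb against 17.2 kb over all genes, and a longer span can hold more peaks. Among all 5930 genes with spans within 2-fold of the stem cell median, 16.3% had at least 5 distal peaks, against 3 of the 6 stem cell genes of such length. The immediate early genes had as high a median number, 4, at a median span of 5.16 kb.

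Summed over all distal peaks of a gene, signal exceeded that at the end for many stem cell regulators. The median distal sum of the stem cell list was 61.9 CPM and its median gene end 16.6 CPM. Over all genes these medians were 4.12 and 10.3 CPM. The sums grow with the number of peaks, and single distal peaks were not compared with the ends. Runx1, which starts definitive blood formation, had 16 distal peaks with 313 CPM in all, against 51.0 ± 7.55 CPM at its end. Msi2, an RNA-binding protein that maintains stem cells, had 20 peaks and 217 CPM, Meis1 16 peaks and 209 CPM, Erg 16 peaks and 199.9 CPM, Fli1 18 peaks and 181 CPM, Prdm16 17 peaks and 154 CPM, and Mecom 23 peaks and 145 CPM. Gata2 had 7 peaks and 134 CPM and Gfi1b 4 peaks and 132 CPM. Such sums can hold peaks at start sites inside the gene, which are counted as distal here. Erg and Fli1 are both ETS factors. The 7.07 ± 1.64 CPM of Erg are at the end that is not its start, and at a start site of the promoter table it had 33.4 CPM. Lyl1, Ctnnal1, Hoxa9, Hoxb4, Hoxb5, Robo4 and Ndn were among those with no distal peak assigned to them. Outside the stem cell list, Ccnd3, cyclin D3, had 11 distal peaks and 311 CPM, Dnmt3a 11 and 289 CPM, Fos 11 and 279.5 CPM, and Runx2 18 and 210.0 CPM with only 7.83 ± 1.97 CPM at its end. The NK receptor gene Klrb1c had 9 distal peaks and 206 CPM with 4.83 ± 1.00 CPM at its end.

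**Figure D4:**
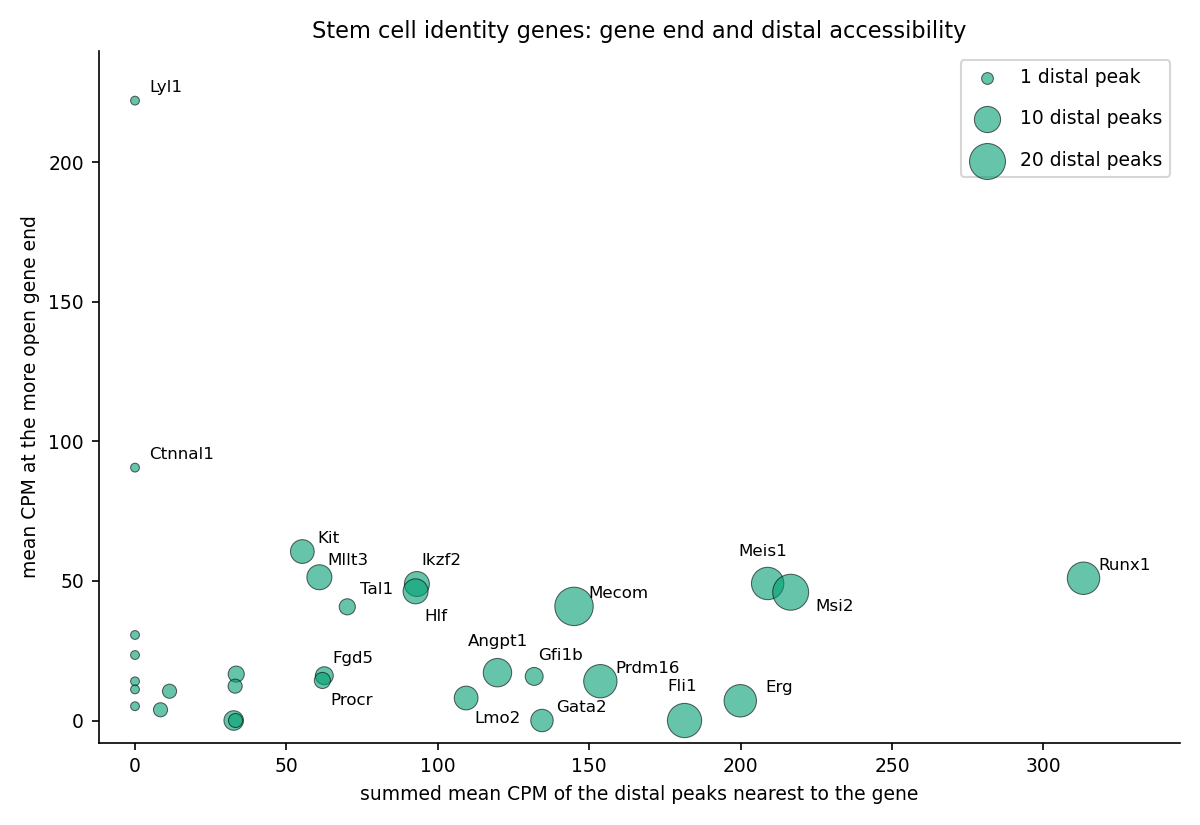
The stem cell identity genes, other than members not reported by name, by the summed mean CPM of the distal peaks nearest to them (horizontal) and the mean CPM at the more open gene end (vertical), with larger points for more distal peaks and names for those with the most signal on either axis. Lyl1 has 222 CPM at its end, where 1 of its 2 peaks is shared with Trmt1, and no distal peak, Runx1 has 51.0 CPM at its end and 313 CPM over 16 distal peaks, and Fli1 has no peak at an annotated end and 18 distal peaks.

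By summed distal signal over all genes, the first locus held 2 very high peaks and most of the next ones many lower ones. Myo3a led with 5807 CPM in 2 peaks, then Sfi1, a centrosome protein (1231 CPM in 27 peaks), Mid1 (1228 in 13) and the predicted gene Gm40363 (1146 in 7). Gse1, a coiled-coil protein of a histone deacetylase complex, had 1036 ± 78.8 CPM in 49 peaks, the most peaks of any gene. It was followed by Zfp978 (591 CPM), 4930467E23Rik (588), Gm21119 (548), Peak1 (546, with 93.3% of it in 1 peak) and Gm15319 (516 CPM). The sums of Myo3a, Sfi1, Zfp978, 4930467E23Rik, Gm21119, Peak1 and Gm15319 were highest in young 3, those of Mid1, Gm40363 and Gse1 in young 4. Regions of repeated sequence were not excluded, and their part in these sums was not tested. By number of distal peaks, after Gse1 came Pde4d, a cAMP phosphodiesterase (45), Zfp978 (38), Nav2 (37), Arid1b, a subunit of the BAF remodelling complex (35), Hivep3 (35) and Foxp1, a forkhead factor (34).

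The 4 libraries were alike at gene ends and less alike at distal sites. Over all 57289 peaks, Pearson's r of log2(CPM + 1) ran from 0.771 (young 3 and 4) to 0.872 (young 2 and 4), and Spearman's rho from 0.670 to 0.793 for the same pairs. Over the 13788 gene end peaks alone Pearson's r ran from 0.887 to 0.928 for these pairs. For the same pairs it ran from 0.639 to 0.807 over gene span peaks and from 0.582 to 0.778 over intergenic peaks. Gene end peaks had more counts (median 23.3 CPM, against 7.48 and 7.26), and counting error lowers r more where counts are low. Its part in this gap was not tested. These correlations are descriptions across peaks, which are not replicates, and the libraries share the peak set. Pairs shared 717 (young 1 and 4) to 787 (young 1 and 2) of their 1000 most open peaks, and 601 were common to all 4. The biological coefficient of variation, edgeR's estimate of the spread beyond counting error, was 0.298 over all peaks, and by class 0.205 for gene ends, 0.319 for gene spans and 0.342 for intergenic peaks.

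Pairs of libraries differed in their spread. The biological coefficient of variation was lowest for young 2 and 4 (0.207), which come from different batches, then 0.247 for young 2 and 3 of the same batch, and highest for young 1 and 4 (0.362). It was 0.249 without young 1, 0.331 without young 2, 0.306 without young 3 and 0.275 without young 4. Of 12575 peaks with at least 20 CPM, 322 were at least 4-fold higher in young 1 than in young 4 and 36 the other way, and 225 were at least 4-fold higher in young 3 than in young 4 and 53 the other way. Between young 2 and 3 the numbers were 29 and 16. Of the 322 peaks higher in young 1, 156 fell within genes, 131 were intergenic and 35 were end peaks, whereas of all 12575 peaks 2910 fell within genes, 2127 were intergenic and 7538 were end peaks.

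The gene ends that varied most between libraries were high in young 1, next highest in young 3 and low in young 4. The 6 with the largest spread beyond counting error among 7447 gene ends of at least 20 CPM were Sdc4, Fetub, Pou2af1, Zdhhc7, Apobec4 and Vpreb3. Sdc4, syndecan 4, had 77.0, 9.93, 32.7 and 0.908 CPM in young 1 to 4 at the end that is not its start. Pou2af1, the B-cell coactivator OCA-B, had 58.6, 10.6, 24.8 and 2.72 CPM at its start. Vpreb3, a protein of pre-B cells, open at the end that is not its start, had 97.3, 17.9, 36.6 and 12.7 CPM. In Fetub, Zdhhc7 and Apobec4 the order was the same, with 56.8, 83.8 and 48.7 CPM in young 1 and 4.08, 3.63 and 2.72 CPM in young 4. By contrast, 1654 of the 7447 gene ends had no spread beyond counting error. The steadiest were those of Itch, Zfp729b, 2510002D24Rik, Txndc5, Erbb3 and Slc35b2, among which Slc35b2 had 22.1, 23.2, 23.5 and 24.5 CPM.

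B-lineage genes as a list were also highest in young 1 and lowest in young 4. Over the 67 peaks at or nearest to the list of B and common lymphoid genes, the summed level was 1543, 1015, 985 and 870 CPM in young 1 to 4, and without young 1 the mean was 957 ± 76.6 CPM (SD, n = 3), so young 1 had 1.61 times that mean. Of the 17 members with any such peak, 16 were highest in young 1, whereas 27.9% of all genes with a peak at an end, summed in the same way, were. Defining genes of the lineage were in this group. Ebf1 had 134, 60.2, 57.5 and 34.9 CPM over 6 peaks, Pax5 87.4, 44.3, 41.8 and 45.4 CPM over 3 peaks and Rag1 29.7, 9.93, 22.2 and 3.63 CPM at its end. Cd79b had 54.1, 15.9, 40.5 and 6.35 CPM over 2 peaks. Cd79a was the exception, but its end value comes from the end that is not its start and that another gene shares, and at its start it had 44.6, 5.96, 20.9 and 2.72 CPM. Vpreb1 and Rag2 had no consensus peak at or nearest to them.

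The other lists varied less between libraries. The T and NK list had 778, 649, 618 and 604 CPM in young 1 to 4, also highest in young 1. Without young 1 its mean was 624 ± 23.3 CPM (SD, n = 3). The stem cell identity list had 3469, 4085, 3463 and 4162 CPM over 267 peaks, so young 1 and 3 were the low ones and young 2 and 4 the high ones, and the megakaryocyte list, at 1188, 1412, 1093 and 1419 CPM, had the same order of libraries. Housekeeping genes had 1706, 1788, 1740 and 1802 CPM and cell cycle genes 1177, 1142, 1138 and 1108 CPM, with CVs of 2.51 and 2.49% against 27.2% for the B list and 10.0% for the stem cell list. In bulk libraries a larger share of cells of a type and more open chromatin per cell cannot be told apart, and young 1 is the only young library of batch 1. The part of batch or of other cells in these values was not tested.

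**Figure D5:**
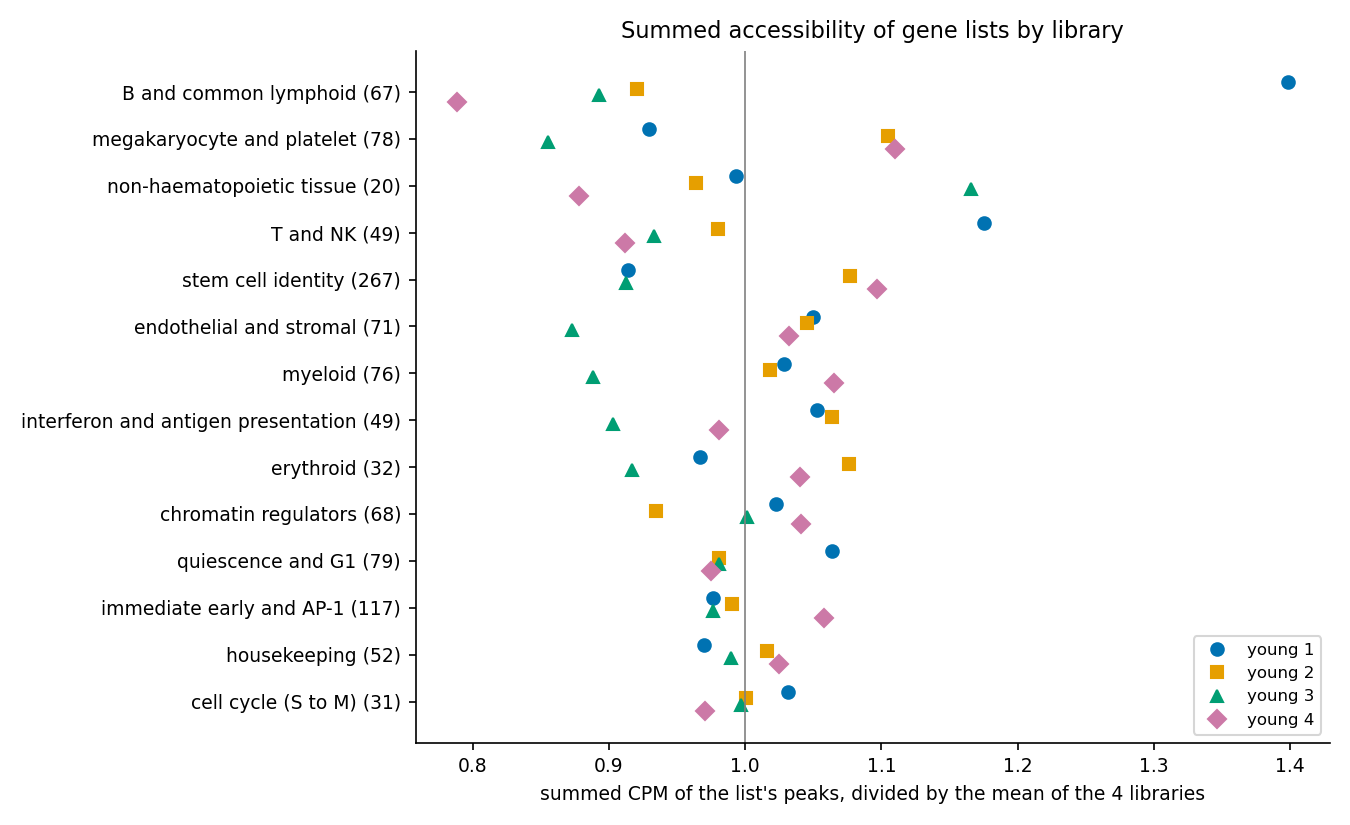
Summed CPM of the peaks at or nearest to the members of each list in young 1 to 4, divided by the mean of the 4 libraries, with the number of peaks in brackets and lists ordered by their spread. In young 1 the B and common lymphoid list stands at 1543 CPM against 870 to 1015 CPM in the others, while housekeeping and cell cycle lists vary by 2.51 and 2.49% (CV).

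Of 24 hairpins of microRNAs known in blood cells, 3 had a consensus peak within 1 kb. Among all 1005 RefSeq hairpins 176 (17.5%) did, so the count for blood microRNAs lies near that background. Their mature sequences from RefSeq (GRCm38.p6) are given with the seed, bases 2 to 8, in capitals, and no seed is shared between the 3 genes.
mmu-miR-142a-3p, chr11:87756903-87756925, plus strand: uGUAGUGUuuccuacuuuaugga
mmu-miR-196b-5p, chr6:52230129-52230150, minus strand: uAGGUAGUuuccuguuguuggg
mmu-miR-155-5p, chr16:84714143-84714165, plus strand: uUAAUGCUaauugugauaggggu
Mir142, found throughout blood cells, had 32.4, 22.5, 23.5 and 19.1 CPM in young 1 to 4. Mir196b, which lies in the Hoxa cluster, had 13.1, 19.9, 15.7 and 17.7 CPM. Mir155, a microRNA of activated lymphoid and myeloid cells, had 26.6, 13.2, 9.14 and 5.90 CPM and was thus highest in young 1. Mir126a, Mir125b-1, Mir223 and Mir451a were among those with no peak within 1 kb, and promoters of microRNA genes can lie farther from the hairpin than this.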

How the data were processed

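Bulk ATAC-seq counts of 4 young LT-HSC libraries were used, out of 14 in the series. The authors deposited raw counts for every consensus peak and library, with the coordinates of the 57289 peaks, each 700 bp wide. The build was mm10 and the tools named were featureCounts, SAMtools (1.14) and R (4.2.0), as the submitters' processing notes list them. The aligner, the peak caller, how the consensus was built, the handling of duplicates and of multiply mapped reads, and any Tn5 shift are not given in the sources used here.

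Counts were divided by the library total to give CPM, and the mean over the 4 libraries was ranked. With 4 libraries of 1 group there was no test, and no p-value is given. Totals of 765533 to 2219775 counts set the precision, and intervals and floors cover counting error only. Genes, spans and start sites came from RefSeq tables of GRCm38.p6. A peak was at a gene end when it overlapped 1 kb either side of an annotated end of a protein-coding gene. Other peaks were assigned to the nearest gene span within 50 kb, which does not show that they act on that gene. The biological coefficient of variation is the square root of edgeR's common dispersion (edgeR 4.0.16 in R 4.3.3), with an intercept only. The computations of CPM spread and edgeR dispersion were tested on simulated data. Other work used Python 3.11.15, numpy 2.4.6, pandas 2.3.3 and matplotlib 3.10.9.

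The members, the 14 gene lists (277 of 278 symbols matched) and the microRNA list were chosen with earlier results of these data known. The genes named were the 12 most open gene ends and distal peaks, the 10 loci with the most distal signal, the 8 lowest ends, members at the top and bottom of each list, the 4 markers and the 6 most and 6 least variable ends of at least 20 CPM. Further list members, loci by number of peaks and lineage genes in young 1 were named after their values were seen. The 16 gene families were matched by the start of their symbols. Alternatives were other scalings, windows, pseudocounts and filters, thinned counts, and leaving out each library. Some members of the lists are counted but not reported here by name.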

Additional observations from a re-analysis of the deposited data

Results flagged for a closer look

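Single values that lay apart from the other 3 libraries were looked for in the 4 young libraries by Dixon's rule for groups of 4, which flags about 1 in 20 groups by chance. Among the gene ends named, Gsk3b stood out in young 3, with 418 CPM there and 209 to 224 CPM in the others. Zfp729b stood out in young 3 at 22.2 CPM, among values that differ by no more than counting error. Of the least open ends, Ftdc1 stood out in young 1 at 1.80 CPM and Oprd1 in young 4 at 5.90 CPM, both resting on few counts. Among list sums, the endothelial and stromal list was low in young 3 at 635 CPM, and the quiescence and G1 list was high in young 1 at about 1900 CPM. The T and NK and the non-haematopoietic medians, both at percentile 19.8 in young 3, stood out only because that library has another shared rank for genes without a peak. The B-lineage sums over all peaks of the list did not pass this rule, since young 4 was low as well. At gene ends alone the B-lineage sums were 442, 323, 316 and 310 CPM in young 1 to 4. There young 1 lay apart and young 4 was close to young 2 and 3. No cause was tested for any of these.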

How the results depend on the processing

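No paired analysis was possible because only 1 group was described and no groups were compared. Of 185 recomputed values with an SD between libraries, 157 moved by less than 1 SD and 28 by more. With a 2 kb window gene ends took 53.0% of counts, and the list medians were 58.0 for stem cell, 59.7 for megakaryocyte, 42.3 for erythroid, 44.0 for myeloid, 60.7 for B and common lymphoid, 37.2 for T and NK, 17.5 for non-haematopoietic, 83.7 for housekeeping, 92.5 for immediate early, 72.2 for interferon and 78.5 for chromatin genes. With start sites of the promoter table alone, chosen after seeing the data, the gene end share was 43.1%, and the medians were 63.3 for stem cell, 19.2 for erythroid, T and NK and non-haematopoietic, 41.4 for myeloid, 56.2 for B and common lymphoid, 39.7 for endothelial, 87.1 for immediate early and 80.1 for chromatin genes. With the single most open peak of an end, the medians were 85.1 for immediate early and 75.7 for quiescence genes. The mean Pearson's r between libraries, 0.808, was 0.848 with a pseudocount of 4, 0.904 over gene ends alone and 0.740 with counts thinned to the shallowest library, and the mean Spearman's rho, 0.725, was 0.918 over gene ends alone and 0.678 thinned. Leaving out each library in turn, the gene end share ran from 48.0 to 49.2%, Pearson's r from 0.787 to 0.830 and Spearman's rho from 0.697 to 0.748. Of the 1000 most open peaks, 994 were shared under TMM scaling, 970 with pooled counts, 959 with the median over libraries and 945 to 952 without each library in turn. The 3 most open peaks were also left out, an alternative chosen after seeing the data. The gene end share was then 49.2%, and the most open 1% of peaks held 9.39%. The 3 peaks held 0.971% of counts by mean, below the SDs of these shares (1.94 and 1.77). A move by 1 SD was thus not possible, and nothing is drawn from its absence. The median of 7 to 20 counts per peak limits what single distal peaks show. One library per batch, in batches 1 and 3, leaves batch and library inseparable there.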
